A study of Mus musculus with 12 samples.

Results

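The EGF ligands and ERBB receptors were followed as a list of 10 genes, 6 ligand genes (Hbegf, Ereg, Egf, Areg, Btc and Nrg1) and 4 receptor genes (Egfr, Erbb2, Erbb3 and Erbb4). The list was chosen because ADAM12 can shed HB-EGF, the product of Hbegf, and each gene was read on the brightest probe set that carries its symbol alone. On this rule 8 of the 10 genes were found among 26989 genes, all 4 receptors and 4 of the 6 ligands. Hbegf and Areg were not found in the annotation used here and were not analysed here. Hearts came from male C57BL/6J mice aged 10 weeks, and RNA was taken 2 weeks after surgery. The groups were Adam12 knockout hearts after transverse aortic constriction (KO TAC), knockout hearts after sham operation (KO sham), wild type hearts after constriction (WT TAC) and wild type hearts after sham operation (WT sham), with 3 hearts and 3 arrays each. The constriction, TAC, narrows the aortic arch and loads the left ventricle with pressure. The labels give the knockout allele no further and name the tissue as heart, with no chamber.

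Ligands of this family are made as membrane-anchored precursors, and proteases of the ADAM family cut them free. EGFR binds EGF, epiregulin and betacellulin, ERBB3 and ERBB4 bind neuregulins, and ERBB4 also binds betacellulin and epiregulin. ERBB2 has no known ligand of its own and serves as the partner in receptor pairs, while ERBB3 has little kinase activity and signals through its partner. In the heart, neuregulin 1 from endothelial cells acts on ERBB4 and ERBB2 of cardiomyocytes, a route known for its part in cardiomyocyte growth and survival.

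All values are log2 signals deposited by the authors, so a difference of 1 is a doubling of signal, and levels are given per gene and never set against another gene's level. Levels carry the SD of 3 arrays as their error, and differences carry limma's standard error. Calls needed an adjusted p under 0.05 across the 26989 genes. Array medians lay between 5.06 and 5.19, arrays correlated with each other at 0.989 to 0.997 over genes, and a probe set was counted as above background when it exceeded the 95th percentile of 23 background probe sets on its array (5.20 to 5.93). Adam12 was read only on a probe set that it shares with 5830403F22Rik, where the 6 knockout arrays read 4.25 to 4.40 and the 6 wild type arrays 4.46 to 4.80. No array was above background there, so this is a weak check of the knockout label. The hearts held the defining cardiomyocyte markers, with each of 7 measured markers above background on at least 1 array of every group. Atrial markers varied between hearts within every group. The summed linear signal of 4 atrial markers was 142520 in KO sham replicate 2, against 14050 and 11736 in the other KO sham hearts. It ran from 5259 to 41373 in KO TAC, from 3752 to 13776 in WT TAC and from 5483 to 46726 in WT sham hearts.

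After TAC the knockout hearts had more signal of the ligand gene Ereg and the receptor gene Egfr, and less of the ligand gene Egf and the receptor gene Erbb4, than knockout hearts after sham. These were 4 of the 8 genes, 2 higher and 2 lower, where 12.8% of all genes were called. In wild type hearts 0 of the 8 passed by limma, where 0.178% of all genes were called. Averaged over genotypes, Ereg was higher and Egf, Erbb3 and Erbb4 were lower, 1 and 3 of 8, where 7.49% of all genes were called higher and 6.12% lower, 13.6% in all. Btc, Nrg1 and Erbb2 passed in no comparison.

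The starts of Egfr, Erbb4 and Egf are shown because these 3 called genes have a start in RefSeq's table on GRCm38.p6, and because the receptor gene Egfr moved the other way from Erbb4 and Egf. Not every chromosome of that table was used for the listed genes, and 6 of the 10 had an entry on those that were. Each line runs 5′ to 3′ over 300 bases, from 250 before to 50 after the start, with matches to searched motifs in capitals.
Egfr, chr11:16751953-16752252, plus strand: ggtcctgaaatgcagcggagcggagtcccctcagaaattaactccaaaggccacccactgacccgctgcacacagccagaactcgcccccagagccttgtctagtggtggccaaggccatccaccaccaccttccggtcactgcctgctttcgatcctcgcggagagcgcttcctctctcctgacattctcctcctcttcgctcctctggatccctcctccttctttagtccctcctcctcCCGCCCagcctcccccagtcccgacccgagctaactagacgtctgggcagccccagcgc
Erbb4, chr1:69108010-69108309, minus strand: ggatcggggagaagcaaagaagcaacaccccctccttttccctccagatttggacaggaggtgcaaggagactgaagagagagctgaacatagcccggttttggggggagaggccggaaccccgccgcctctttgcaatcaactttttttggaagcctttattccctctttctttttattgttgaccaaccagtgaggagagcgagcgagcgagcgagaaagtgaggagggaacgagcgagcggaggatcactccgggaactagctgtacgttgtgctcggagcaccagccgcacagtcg
Egf, chr3:129755273-129755572, minus strand: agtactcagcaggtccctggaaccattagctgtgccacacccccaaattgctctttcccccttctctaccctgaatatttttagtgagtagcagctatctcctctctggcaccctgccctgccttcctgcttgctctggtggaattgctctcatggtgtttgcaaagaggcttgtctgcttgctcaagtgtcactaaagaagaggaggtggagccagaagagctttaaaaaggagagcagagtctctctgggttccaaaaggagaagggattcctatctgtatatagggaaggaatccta
The search covered both strands for the letters GGGCGG of the GC box, TGANTCA of the AP-1 site, TATAAA of the promoter element bound by TBP, and CCAAT, the letters bound by NF-Y; with a single match in all, none overlapped. The Egfr start held 1 GC box, on the minus strand just before the start, and GC boxes occur in 35.7% of the 32851 promoters of the table. Neither the Erbb4 nor the Egf window held any of these letters. AP-1 letters occur in 7.81% of promoters, the TBP element in 13.6% and the NF-Y letters in 37.4%. The Egfr window was 62.3% G and C, the Erbb4 window 55.3% and the Egf window 49%, beside a median of 52.7% over all promoters. For Egf the table holds 2 starts, and the one farther upstream is shown.

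Ereg encodes epiregulin, a ligand of EGFR and ERBB4 that is scarce in healthy tissue and made under inflammation and injury. Its signal on chromosome 5 was 6.03, 6.08 and 6.12 in KO TAC replicates 1 to 3, against 4.65, 4.77 and 4.71 in KO sham replicates. Wild type signals were 4.94, 5.77 and 4.78 after TAC, against 4.77, 4.47 and 4.96 after sham. All 3 KO TAC hearts lay above the other 9 hearts, and among the wild type TAC hearts only replicate 2 stood clear of the sham values. The gene was dim: it was above background on 4 of 12 arrays, the 3 KO TAC arrays and WT TAC replicate 2, and on none of the 6 sham arrays. Set against the background level of the KO sham arrays, the mean Ereg signal of the KO TAC hearts was at least 1.30-fold higher. This bound is a point value that carries no error. The fitted difference, with the sham values as deposited, was 1.37 ± 0.21 (adjusted p = 0.00162), and its size rests on levels not above background. The same limit holds for the other fitted Ereg differences. In the wild type the fitted difference was 0.43 ± 0.21 and did not pass (adjusted p = 0.431), and the data give no bound there. Averaged over genotypes the fitted rise was 0.90 ± 0.15 (adjusted p = 0.00223). A second Ereg probe set, not above background on any array, read 3.79, 4.19 and 3.95 in KO TAC hearts and 3.66, 3.81 and 3.62 in KO sham hearts. Its difference of 0.28 did not pass (adjusted p = 0.0877).

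Egf encodes the founding ligand of the family, which binds EGFR. Its chromosome 3 probe set read 5.90, 5.83 and 5.84 in KO TAC hearts, against 6.54, 6.33 and 6.21 in KO sham hearts. Wild type hearts read 6.55, 6.01 and 6.35 after TAC, against 6.45, 6.72 and 6.70 after sham. The 3 KO TAC hearts were the lowest of all 12, and the wild type groups overlapped, with TAC replicate 2 the lowest of the wild type hearts. Egf fell by 0.50 ± 0.13 after TAC in the knockout (adjusted p = 0.0307). The wild type difference was -0.32 ± 0.13 (adjusted p = 0.373). The averaged fall was 0.41 ± 0.09 (adjusted p = 0.0145). The call in the knockout rested on single arrays, since the adjusted p was 0.0627, 0.097 and 0.0804 without KO TAC replicate 1, 2 or 3 and 0.115 and 0.0666 without KO sham replicate 1 or 2, with differences from -0.52 to -0.41.

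Btc and Nrg1 are the remaining measured ligand genes. Betacellulin, the product of Btc, binds EGFR and ERBB4, and its gene gave 6.32, 6.30 and 6.22 in KO TAC hearts, against 6.43, 6.26 and 5.96 in KO sham hearts. Btc gave 6.50, 6.23 and 6.19 in WT TAC hearts, against 6.36, 6.50 and 6.33 in WT sham hearts. The groups overlapped in both genotypes, and the 95% interval of the TAC difference ran from -0.20 to 0.32 in the knockout and from -0.35 to 0.18 in the wild type.

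Nrg1 encodes neuregulin 1, the ligand of ERBB3 and ERBB4. Its brighter probe set, on chromosome 8, gave 5.95, 5.95 and 6.11 in KO TAC hearts, against 5.81, 5.97 and 5.55 in KO sham hearts. Wild type hearts gave 5.89, 5.82 and 5.83 after TAC, against 5.86, 6.33 and 5.71 after sham. TAC and sham hearts overlapped in both genotypes, with intervals from -0.10 to 0.55 in the knockout and from -0.44 to 0.20 in the wild type. This probe set was above background on 10 of 12 arrays, and a second one for Nrg1 was above background on none.

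**Figure D1:**
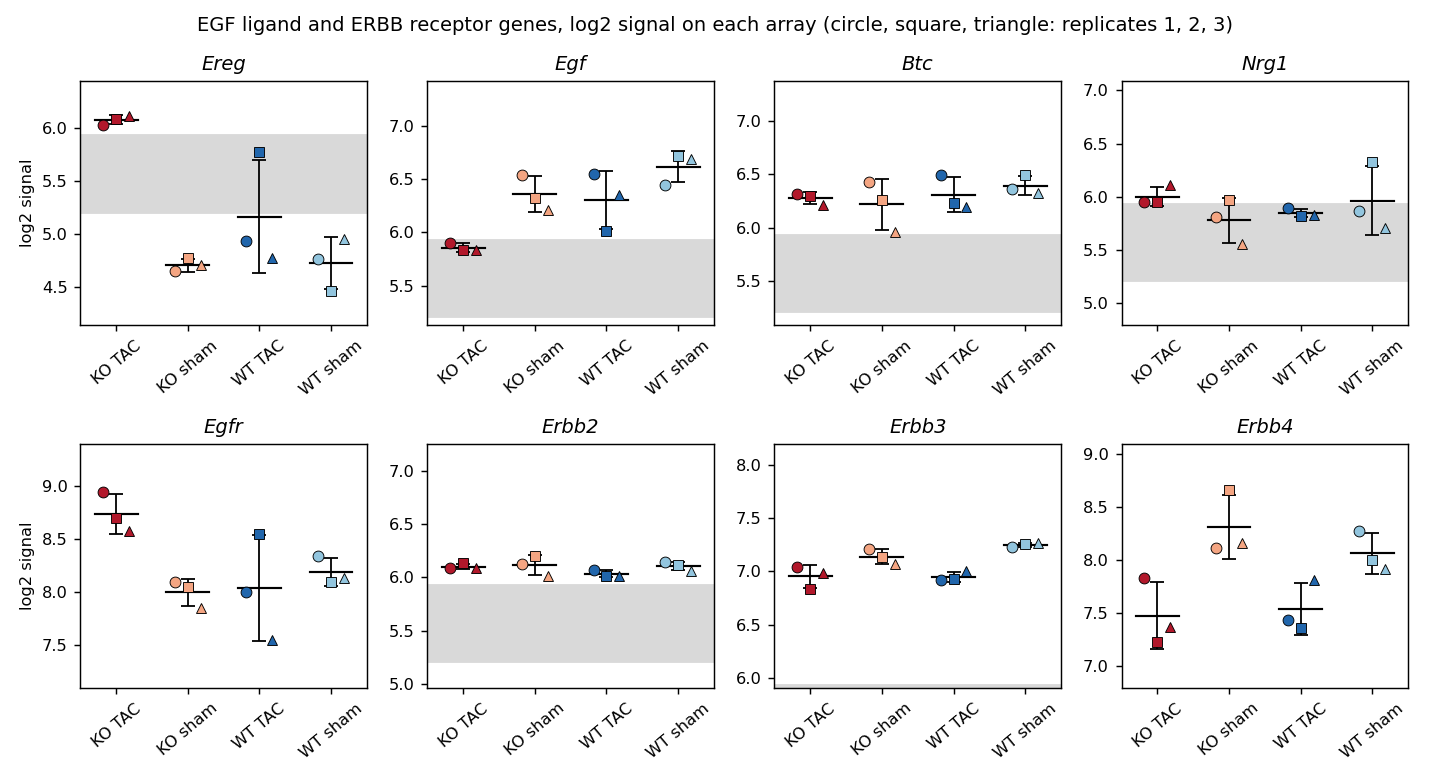
Log2 signal of the 8 measured genes on each array (y axis, 1 panel per gene, each panel 2.3 log2 units high) by group (x axis); bars are means, whiskers 1 SD over 3 arrays, and the grey band runs from 5.20 to 5.93, the range over arrays of the 95th percentile of background. KO TAC hearts stand apart for Ereg and Egf, and WT TAC replicate 2 (square) lies nearest to them.

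Egfr encodes the receptor of EGF, epiregulin, betacellulin and HB-EGF, and in the heart it is found in fibroblasts, vessel cells and cardiomyocytes. On chromosome 11 it read 8.94, 8.70 and 8.58 in KO TAC hearts, against 8.10, 8.05 and 7.85 in KO sham hearts. Wild type hearts read 8.001, 8.55 and 7.56 after TAC, against 8.34, 8.09 and 8.13 after sham. Every KO TAC heart lay above the other 9 hearts, while WT TAC hearts spread over a wider range than any other group and held both the highest and the lowest wild type value. Egfr rose by 0.74 ± 0.20 in the knockout, a 1.67-fold difference (adjusted p = 0.0329). It differed by -0.15 ± 0.20 in the wild type (adjusted p = 0.815) and by 0.29 ± 0.14 averaged over genotypes (adjusted p = 0.238), so the averaged comparison did not call it. Without WT TAC replicate 3, the heart with the lowest Egfr signal, the averaged difference was 0.41 and passed (adjusted p = 0.0319). The knockout call was lost without KO TAC replicate 1 (0.64, adjusted p = 0.114) or 2 (0.76, adjusted p = 0.0847). It was also lost without KO sham replicate 1 (0.79, adjusted p = 0.0634), 2 (0.76, adjusted p = 0.0706) or 3 (0.67, adjusted p = 0.118).

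Erbb4 encodes the neuregulin receptor of cardiomyocytes. It read 7.83, 7.23 and 7.37 in KO TAC hearts, against 8.12, 8.66 and 8.16 in KO sham hearts. In wild type hearts it read 7.44, 7.36 and 7.81 after TAC, against 8.28, 8.0003 and 7.91 after sham. TAC hearts lay below sham hearts without overlap in both genotypes, and all 6 TAC hearts lay below all 6 sham hearts. Erbb4 fell by 0.84 ± 0.19 in the knockout (adjusted p = 0.0138), to 0.56 of the sham signal. Its wild type difference was -0.53 ± 0.19 (adjusted p = 0.285), and the averaged fall was 0.68 ± 0.14 (adjusted p = 0.006). The highest value, 8.66, came from KO sham replicate 2, the heart with the highest sum of atrial markers. Without that heart the knockout difference was -0.66 (adjusted p = 0.0516), without KO TAC replicate 2 it was -0.71 (adjusted p = 0.0667), and with the atrial gene Myl7 as a covariate it was -0.65 (adjusted p = 0.0057).

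Erbb3 encodes the receptor that signals through its partners, best known from Schwann cells and epithelia. Its signal was 7.04, 6.83 and 6.99 in KO TAC hearts, against 7.21, 7.14 and 7.07 in KO sham hearts. In wild type hearts it was 6.92, 6.93 and 7.004 after TAC, against 7.23, 7.25 and 7.27 after sham. Neither pair of groups overlapped. The TAC difference was -0.19 ± 0.07 in the knockout (adjusted p = 0.132) and -0.30 ± 0.07 in the wild type (adjusted p = 0.118), neither of which passed. Averaged over genotypes Erbb3 fell by 0.24 ± 0.05 (adjusted p = 0.00843), to 0.844 of the sham signal. Of 5 measured Schwann and nerve markers 0 were called by limma in the knockout, where 12.8% of all genes were called. In the averaged comparison 1, the potassium channel gene Kcna1, was lower, where 6.12% of all genes were called lower. The summed linear signal of the 5 markers ran from 290 to 369 in KO TAC hearts, against 355 to 388 in KO sham hearts. It ran from 325 to 376 in WT TAC hearts, against 414 to 478 in WT sham hearts. Ngfr, a defining marker of this list, was not above background on any array. Their part in the Erbb3 difference was not tested.

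Erbb2, which encodes the shared partner receptor, lay between 6.02 and 6.20 on all 12 arrays. It read 6.09, 6.13 and 6.09 in KO TAC hearts, against 6.13, 6.20 and 6.02 in KO sham hearts, and 6.07, 6.02 and 6.02 in WT TAC hearts, against 6.14, 6.11 and 6.06 in WT sham hearts. The hearts after TAC and sham overlapped in both genotypes. The interval of its TAC difference ran from -0.16 to 0.13 in the knockout and from -0.22 to 0.07 in the wild type.

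Counted over the family, 5 of 8 genes did not overlap between KO TAC and KO sham hearts, beside 32.3% of all genes, and 2 of 8 did not overlap between WT TAC and WT sham hearts, beside 16.1%. The median size of the TAC difference was 0.36 over the 8 genes and 0.13 over all genes in the knockout, and 0.23 and 0.10 in the wild type. With 0 members called by limma in the wild type, 3 (Egf, Erbb3 and Erbb4) had an unadjusted p under 0.05, beside 12.3% of all genes. The number called in the knockout was 1 without KO TAC replicate 2 (7.77% of all genes called) or KO sham replicate 2 (10.3%), and 2 without KO TAC replicate 1 (10.2%) or KO sham replicate 1 (9.21%). It was also 2 when all 58795 probe sets were tested (6.46% called).

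**Figure D2:**
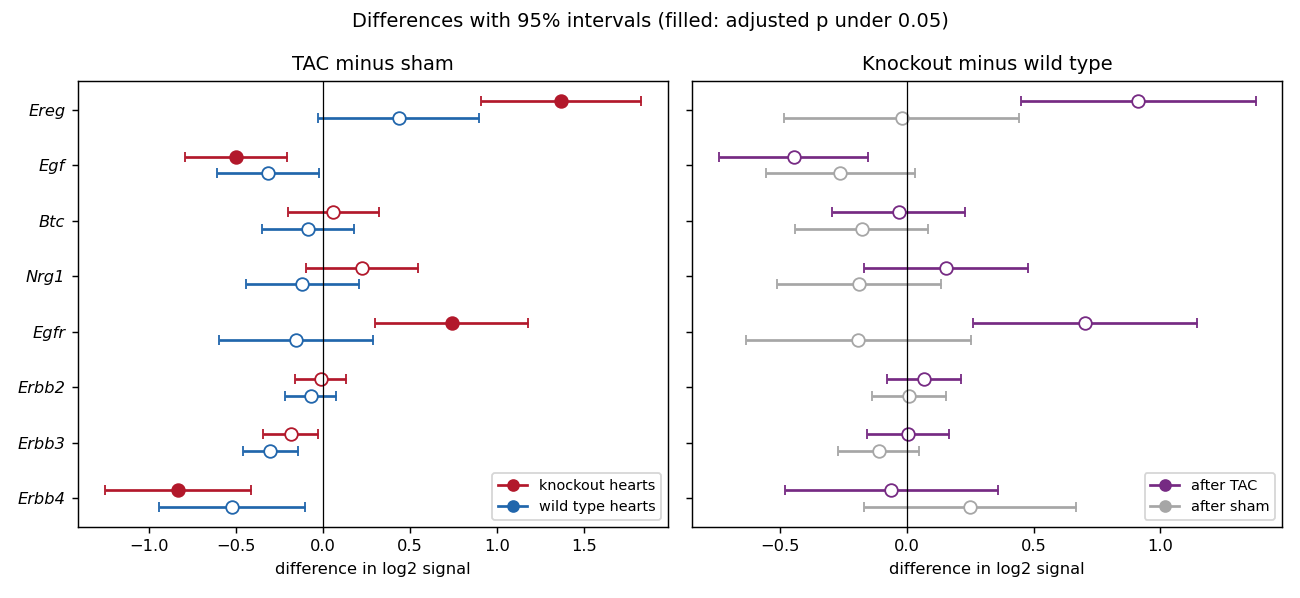
Differences in log2 signal (x axis) for the 8 genes (y axis) with 95% intervals of limma, TAC minus sham on the left and knockout minus wild type on the right; filled points have an adjusted p under 0.05. Only Ereg, Egf, Egfr and Erbb4 for TAC in the knockout are filled.

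Between the genotypes after TAC, 0 of the 8 genes passed by limma, where 0.0111% of all genes were called. Ereg came nearest, at 6.08 ± 0.04 in KO TAC and 5.16 ± 0.53 in WT TAC hearts, a fitted difference of 0.91 ± 0.21 (adjusted p = 0.0759), with 1 of 3 WT TAC arrays above background. Egfr averaged 8.74 ± 0.19 in KO TAC and 8.04 ± 0.50 in WT TAC hearts (0.70 ± 0.20, adjusted p = 0.13). Egf averaged 5.86 ± 0.04 in KO TAC and 6.30 ± 0.27 in WT TAC hearts (-0.45 ± 0.13, adjusted p = 0.148). These 3 genes had an unadjusted p under 0.05, beside 14.6% of all genes. The knockout and wild type hearts did not overlap for 5 of the 8 genes (Ereg, Egf, Egfr, Nrg1 and Erbb2), beside 19.2% of all genes. Erbb4 averaged 7.48 ± 0.31 in KO TAC and 7.54 ± 0.24 in WT TAC hearts, and the interval of its difference ran from -0.48 to 0.36. Erbb3 averaged 6.95 ± 0.11 in KO TAC and 6.95 ± 0.05 in WT TAC hearts, with an interval from -0.16 to 0.16.

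The outcome after TAC turned on WT TAC replicate 2. Ereg was above background in all 3 KO TAC hearts and, among WT TAC hearts, in replicate 2 alone. Set against the mean of the WT sham hearts, KO TAC hearts differed by 0.39 to 0.75 for Egfr and by -0.79 to -0.72 for Egf. WT TAC replicate 2 differed from that mean by 0.36 for Egfr and -0.61 for Egf. The other WT TAC hearts differed by -0.19 and -0.63 for Egfr and by -0.07 and -0.27 for Egf, so that replicate 2 lay nearer to the KO TAC hearts than either of them. Postn, a matrix gene of activated fibroblasts, read 16.38, 16.78 and 16.21 in KO TAC hearts, against 14.09, 15.74 and 13.29 in WT TAC hearts. Replicate 2 was again the highest of the WT TAC hearts. Without WT TAC replicate 2, 3 of the 8 genes passed between the genotypes after TAC, where 2.87% of all genes did: Ereg (1.22, adjusted p = 0.00128), Egfr (0.96, adjusted p = 0.0104) and Egf (-0.59, adjusted p = 0.0281). The fit then assumes that the 2 WT TAC hearts left vary like the other groups. Replicate 2 was singled out on the values of these same genes, so these calls add no support for a difference between the genotypes. In every other fit without 1 array, 0 of the 8 genes passed here.

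**Figure D3:**
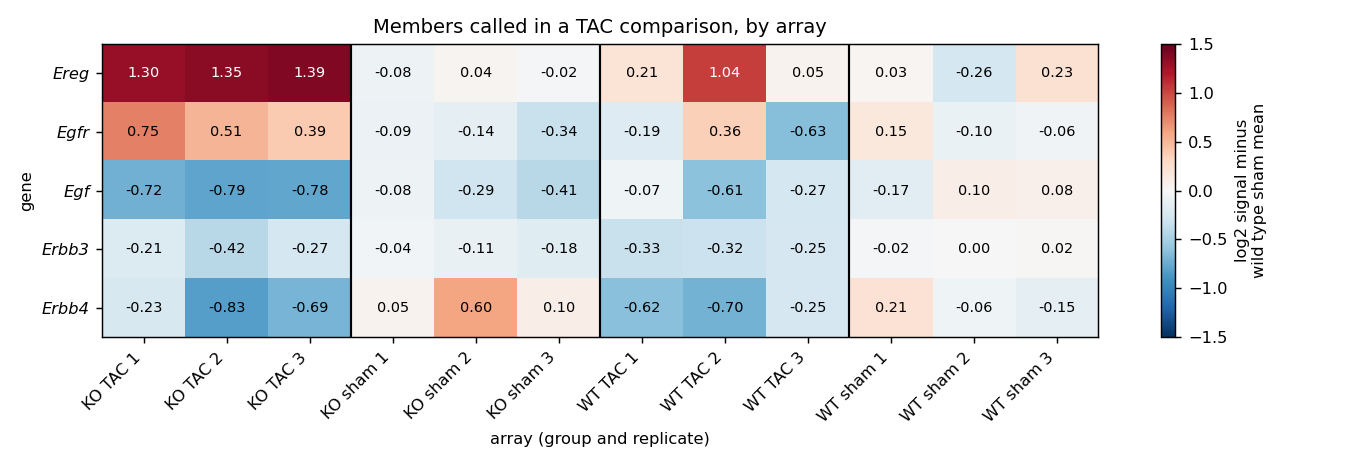
Log2 signal minus the mean of the WT sham hearts for the 5 genes called in a TAC comparison (rows) on each of 12 arrays (columns, by group and replicate); red is higher and blue lower, and each cell prints its value. Among wild type hearts, WT TAC replicate 2 has the highest Ereg (1.04) and the lowest Egf (-0.61); the Ereg row is set against WT sham values not above background, so its sizes are no measured folds.

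After sham 0 of the 8 genes differed between genotypes by limma, where 0% of all genes were called, and 0 of the 8 had an unadjusted p under 0.05, beside 5.54% of all genes. Egf had the smallest p, at 6.36 ± 0.17 in KO sham and 6.62 ± 0.15 in WT sham hearts (-0.26 ± 0.13, adjusted p = 0.911). Only Erbb3 did not overlap between these groups, beside 12.3% of all genes. The interval for Ereg ran from -0.48 to 0.44 and that for Egfr from -0.63 to 0.25.

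Whether the TAC response differed between the genotypes was tested as an interaction, and 0 of the 8 genes passed by limma, where 0% of all genes did. Ereg and Egfr had an unadjusted p under 0.05, beside 11% of all genes. The Egfr response differed between the knockout and the wild type by 0.89 ± 0.29 (adjusted p = 0.294). For Ereg the fitted difference between responses was 0.93 ± 0.30 (adjusted p = 0.294), whose size cannot be read, since Ereg was above background on none of the 6 sham arrays and on 1 of 3 WT TAC arrays. For Erbb4 the difference between responses was -0.31 ± 0.27 (adjusted p = 0.703). Without WT TAC replicate 2 the interaction passed for 2 of the 8 genes, Ereg (1.24, adjusted p = 0.0141) and Egfr (1.15, adjusted p = 0.0417), where 0.559% of all genes passed. That heart was singled out on the values of these same genes, so these calls add no support for a difference between the responses. In every other setting 0 of the 8 genes passed. No result here speaks of HB-EGF, whose gene was not analysed here.

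Other genes of the pathway were taken from 5 lists. Among genes that shed or guide the ligands, 6 of 10 rose after TAC in the knockout and 0 fell, beside 7.08% of all genes called higher, with a median difference of 0.48 over the list and -0.03 over all genes. ADAM10, a sheddase of EGF and betacellulin, is encoded by Adam10, which differed by 0.63 ± 0.07 in the knockout and 0.24 ± 0.07 in the wild type. Adam9 and Adam15 encode proteases of the same family. Adam9 differed by 0.78 ± 0.09 in the knockout and 0.30 ± 0.09 in the wild type, and Adam15 by 0.54 ± 0.07 in the knockout and 0.28 ± 0.07 in the wild type. Cd9, which encodes a membrane partner of the HB-EGF precursor, differed by 0.80 ± 0.13 in the knockout and 0.34 ± 0.13 in the wild type. These 4 were called in the knockout and averaged over genotypes, and 0 of the 10 were called by limma in the wild type. Between KO TAC and WT TAC hearts 0 of the 10 passed, with Adam15 (0.41 ± 0.07) and Adam9 (0.52 ± 0.09) at adjusted p = 0.0592.

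Receptor adaptors and effectors moved both ways. Of 15 measured genes (22 listed) 4 rose and 3 fell in the knockout after TAC, where 7.08% and 5.68% of all genes were called, with a median difference of 0.13 over the list and -0.03 over all genes. The docking protein gene Gab2 rose by 1.25 ± 0.18 and the adaptor gene Shc1 by 0.51 ± 0.08. Pik3r1, which encodes the regulatory subunit of PI3 kinase, fell by 1.02 ± 0.24 and the kinase gene Akt2 by 0.45 ± 0.11. Their wild type differences had the same signs, 0.46 ± 0.18, 0.29 ± 0.08, -0.60 ± 0.24 and -0.29 ± 0.11, and 0 of 15 passed there. After TAC, Shc1 was at 0.35 ± 0.08 and Stat3, a transcription factor downstream of the receptors, at 0.41 ± 0.09 between KO TAC and WT TAC hearts (adjusted p = 0.0675 and 0.072).

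Among feedback inhibitors of the receptors 3 of 14 measured genes (17 listed) rose in the knockout and 0 fell, where 7.08% and 5.68% of all genes were called, with a median of 0.17 over the list and -0.03 over all genes. Spred1, which encodes an inhibitor of RAS and RAF signalling, rose by 1.05 ± 0.10, Dusp6, which encodes a phosphatase of ERK, by 0.84 ± 0.16 and Lrig3 by 0.55 ± 0.13. In wild type hearts these genes differed by 0.42 ± 0.10, 0.59 ± 0.16 and 0.12 ± 0.13, and 0 of 14 passed. Spry1 (0.35 ± 0.12 in the knockout) did not pass. Between KO TAC and WT TAC hearts Cbl, which encodes a ubiquitin ligase of the receptors, was at 0.48 ± 0.15 (adjusted p = 0.16) and Spred1 at 0.31 ± 0.10 (adjusted p = 0.168).

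Of 12 measured growth factor response genes (16 listed) 4 rose in the knockout and 0 fell, where 7.08% and 5.68% of all genes were called. The list's median was 0.27 in the knockout and 0.23 in the wild type, beside -0.03 and 0.02 over all genes, and 0 of 12 passed in the wild type by limma. The transcription factor genes Fosl2, Myc and Etv5 rose by 0.98 ± 0.13, 0.78 ± 0.14 and 0.63 ± 0.14. The wild type differences were 0.48 ± 0.13, 0.16 ± 0.14 and 0.27 ± 0.14. Fos, an immediate early gene, was called in the averaged comparison alone, at 0.26 ± 0.08 (adjusted p = 0.0475). Between KO TAC and WT TAC hearts Fosl2 was at 0.64 ± 0.13 (adjusted p = 0.063) and Plaur, which encodes the urokinase receptor, at 0.28 ± 0.10 (adjusted p = 0.246). Fos and Plaur were above background on KO TAC replicate 2 alone, at 5.36 and 5.34 against 5.20. The sizes of their differences therefore rest on levels not above background. Of 4 other measured ligand genes (5 listed) 0 passed in either genotype by limma, and Nrg4, a neuregulin gene, was lower by limma in the averaged comparison (-0.21 ± 0.06, adjusted p = 0.0387). Tgfa, Epgn and Nrg3 differed by -0.11 to 0.04 in that comparison and did not pass. Epgn and Nrg3 were not above background on any array and Tgfa on KO TAC replicate 2 alone. Their small differences therefore cannot be read as no change. Nrg4 was itself near background, at 5.42 to 5.81 over the arrays.

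**Figure D4:**
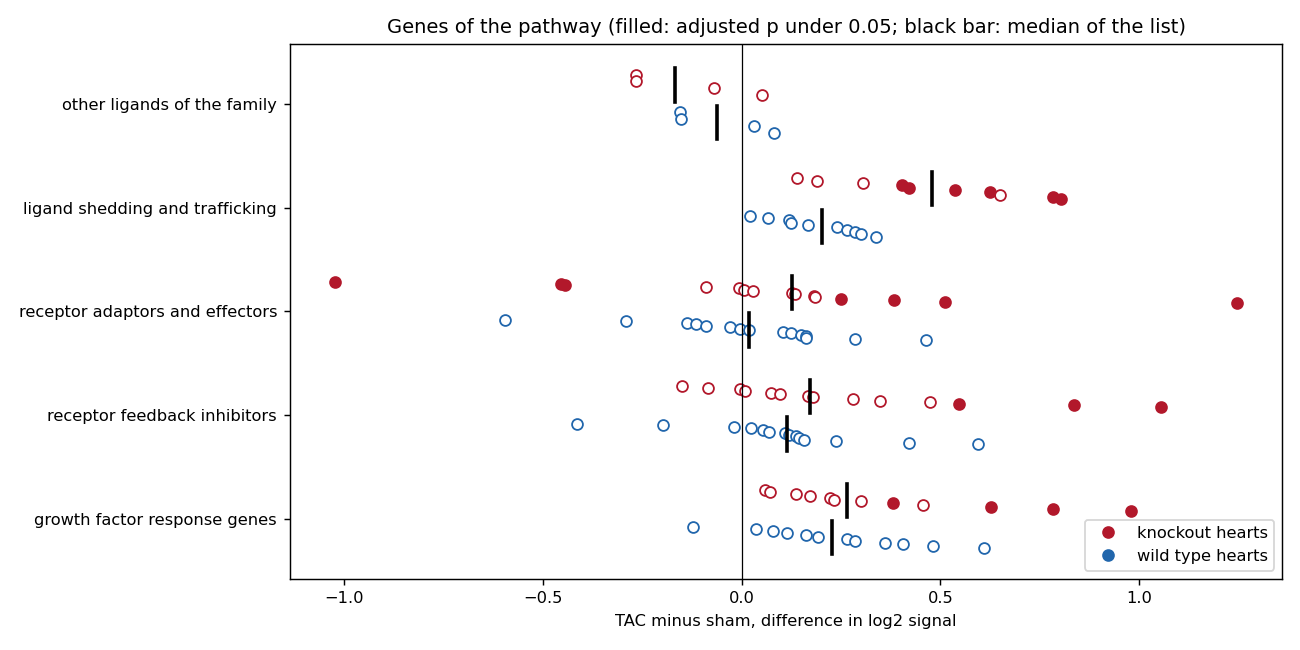
TAC minus sham difference in log2 signal (x axis) of each measured gene of 5 pathway lists (y axis), knockout hearts above wild type hearts; filled points have an adjusted p under 0.05 and black bars are list medians. Filled points occur in knockout hearts alone, with 6 of 10 genes for ligand shedding.

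Markers of some cell types were also called after TAC in the knockout. In a bulk sample fewer cells of a type and less RNA per cell cannot be told apart. The counts of knockout calls below stand beside 7.08% of all genes called higher and 5.68% called lower after TAC. Of 7 measured fibroblast markers 6 were called higher after TAC in the knockout, with a median difference of 2.12, and their summed linear signal ran from 154580 to 199080 in KO TAC hearts, against 92008 to 108616 in KO sham hearts. It ran from 92268 to 154582 in WT TAC hearts, against 101325 to 115707 in WT sham hearts, and the value of WT TAC replicate 2 was the highest of its group. All 5 measured macrophage and monocyte markers were called higher in the knockout, with sums from 18432 to 35187 in KO TAC hearts, against 9810 to 12172 in KO sham hearts. Their sums ran from 15197 to 17645 in WT TAC hearts, against 9695 to 12274 in WT sham hearts. Here the value of WT TAC replicate 2 was the lowest of its group. Of 7 cardiomyocyte markers 3 were called lower, with sums from 2130100 to 2275220 in KO TAC hearts, against 2439690 to 2460070 in KO sham hearts. Each marker of these 3 lists except the monocyte gene Ccr2 was above background on at least 1 array of every group. Ccr2 read 5.39, 5.34 and 5.14 in KO sham hearts, not above background on any of them. The size of its rise in the knockout therefore rests on sham levels not above background. Of the other lists, 2 of 7 endothelial, 1 of 5 lymphocyte and mast cell and 1 of 4 neutrophil markers were called higher in the knockout. Of 5 smooth muscle and pericyte markers 1 was called lower, and 0 of 5 mesothelial and epithelial, 0 of 4 atrial and 0 of 4 adipocyte markers were called by limma. Krt19, Krt8, Krt18, Cd3e, Cd3g, Cd79a, S100a8, Retnlg and Plin1 of these lists were not above background on any array. The lack of a call for these markers cannot be read as no change. In the wild type 0 markers of any list were called by limma, where 0.178% of all genes were called. The only fit with a marker was that with Myl7 as a covariate, added after seeing the data. Otherwise the part of these markers in the differences of Ereg, Egfr, Egf and Erbb4 was not tested.

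Genes whose pattern was most like that of Ereg, the gene of the 8 with the smallest p for averaged TAC, were ranked by Pearson's r over the 12 arrays among 8664 genes above background on every array. The 3 highest were Anxa5, which encodes a phospholipid-binding annexin (r = 0.983), Coro1c, which encodes an actin-binding coronin (r = 0.982), and Itih5, which encodes a hyaluronan-associated protein (r = 0.98). The arrays share their groups, so r is given as a description of likeness. Itih5 read 10.04, 10.08 and 10.12 in KO TAC hearts, against 8.28, 8.25 and 8.32 in KO sham hearts, and 8.94, 9.68 and 8.50 in WT TAC hearts, against 8.36, 8.12 and 8.27 in WT sham hearts. As for Ereg, all KO TAC hearts lay above the others and WT TAC replicate 2 was the highest of the wild type hearts. Itih5 was picked for its likeness to Ereg on these same arrays, so the shared order follows from that choice and adds no support.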

How the data were processed

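Total RNA from 12 mouse hearts (250 ng per array, biotin-labelled) was hybridized to Affymetrix Clariom D mouse arrays (MTA 1.0), 1 array per heart. The authors deposited log2 signals for 65527 probe sets, made with Affymetrix Expression Console per the submitters' processing notes; normalization and summarization are not given in the sources used here. Of these, 6732 control probe sets were left out. Probe sets were named from GEO's platform annotation, and each gene was taken as its brightest probe set with exactly 1 symbol (26989 genes). That some hearts share a cage, litter or surgery day is not given in the labels.

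Differences were estimated with limma (version 3.58.1, R 4.3.3) from a model of the 4 group means fitted to the 12 arrays together (residual degrees of freedom 8, prior 3.29), 2-sided, with Benjamini-Hochberg adjustment over all genes. Of 6 comparisons, 3 set TAC against sham (knockout, wild type, average), 2 set knockout against wild type (after TAC, after sham) and 1 was the interaction. Replicate numbers were used as a block only in an alternative. Between KO TAC and KO sham the deviations of same-numbered arrays correlated at 0.254, 0.143 and 0.173, while in each other comparison of 2 groups at least 1 pair lay under 0.1. The procedure was tested on simulated data. The precision is limited by 3 arrays per group. The members, the 5 pathway lists and the 11 marker lists were chosen with earlier results of these data known. All 8 genes were named. Per list up to 4 genes with the smallest p for averaged TAC and up to 2 for knockout against wild type after TAC were named, and Kcna1, Ngfr, Postn and Myl7 were chosen after their values were seen. Alternatives were all probe sets, quantile normalization, median centring, a filter on dim genes (above background on at least 3 arrays), trended and robust variance, array weights, only the groups compared, the replicate number as a block, other probe sets of a gene and each array left out. Myl7 as a covariate was added after seeing the data. Promoter sequences are RefSeq's on GRCm38.p6.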

Additional observations from a re-analysis of the deposited data

Results flagged for a closer look

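Nrg1 stood out because the TAC hearts of the 2 genotypes lay on opposite sides of their sham means. All 3 KO TAC hearts lay above the mean of the KO sham hearts, and all 3 WT TAC hearts lay below the mean of the WT sham hearts. The share of all genes with such a pattern was not computed. The difference between the TAC responses was 0.34 ± 0.21 and did not pass in the interaction test of limma (adjusted p = 0.573). The WT sham mean is carried by replicate 2, at 6.33, against 5.86 and 5.71 in the other WT sham hearts. The KO sham mean is lowered by replicate 3, at 5.55. KO sham replicate 2, at 5.97, lay above KO TAC replicates 1 and 2, both at 5.95. On the second, dimmer Nrg1 probe set, which was not above background on any array, the difference between the responses was -0.08 (adjusted p = 0.896).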

How the results depend on the processing

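In the averaged TAC comparison the calls of Ereg, Egf, Erbb3 and Erbb4 held in each of the 12 fits without 1 array and in each of 8 other settings of the same probe sets; the second Ereg probe set gave 0.19 (adjusted p = 0.0949). The count of members called for TAC in the knockout was 4, was 2 with all probe sets tested, and ran from 1 to 4 with single arrays left out, and Ereg passed in all of these. Egfr was not called there after centring on the array median (adjusted p = 0.0514). For knockout against wild type after TAC the count of 0 became 1 without dim genes (Ereg, adjusted p = 0.0414, 13352 genes tested), and ran from 0 to 3 with single arrays left out. All 8 members passed that filter, but Ereg did so through its 3 KO TAC arrays and WT TAC replicate 2, so this call supports no difference between the genotypes. For the interaction the count ran from 0 to 2. For TAC averaged the count was 4 in each setting except without WT TAC replicate 3, where Egfr made it 5, and for TAC in the wild type and genotype after sham it was 0 in each setting. Over all genes, the 3 called for genotype after TAC became 632 without dim genes, 575 with the replicate block and 30 with trended and robust variance, and ran from 0 to 774 with single arrays left out. The 48 called for TAC in the wild type became 352 with array weights, 266 with the replicate block, 199 without dim genes and 0 with the groups compared alone or with Myl7, and ran from 0 to 264 with single arrays left out. With the replicate block the counts stayed at 4, 0, 4, 0, 0 and 0, in the order TAC in the knockout, TAC in the wild type, TAC averaged, genotype after TAC, genotype after sham and interaction. Over all groups, deviations of same-numbered arrays correlated from -0.07 to 0.31 and 8 of 12 arrays correlated best with an array of their own number, a hint of pairing from the data that the labels do not state.

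Signs changed only for differences that passed in no setting. With single arrays left out, Btc ran from -0.069 to 0.166 for TAC in the knockout, from -0.0776 to 0.0401 for TAC averaged and from -0.0881 to 0.0642 for genotype after TAC. Nrg1 ran from -0.247 to 0.0623 for TAC in the wild type and from -0.0112 to 0.143 for TAC averaged. Egfr ran from -0.411 to 0.087 for TAC in the wild type, and was 0.0501 with array weights. Erbb2 ran from -0.0616 to 0.0312 for TAC in the knockout and from -0.0349 to 0.058 for genotype after sham. Erbb3 ran from -0.0392 to 0.065 and Erbb4 from -0.236 to 0.0777 for genotype after TAC, and Ereg from -0.153 to 0.0935 for genotype after sham. On the second probe set Nrg1 differed by -0.0996 (TAC in the knockout), -0.0595 (averaged), -0.0902 (genotype after TAC) and -0.0802 (interaction), and Ereg by 0.0154 for genotype after sham. With array weights Erbb2 was at 6.674e-04 for TAC in the knockout and -0.0145 for genotype after sham, and Ereg at 0.0393 for genotype after sham. With Myl7 as a covariate, chosen after seeing the data, Erbb2 was at 0.012 and -0.0115 in the same comparisons and Erbb3 at -0.0038 for genotype after TAC. Quantile normalization put Erbb3 at -0.0231 and median centring put Btc at 0.00244 for genotype after TAC. The cause of these changes was not tested.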
